A study of Homo sapiens with 6 samples.

Results

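The integrated stress response genes EIF2AK1, EIF2AK2, EIF2AK3, EIF2AK4, DELE1, OMA1, PPP1R15A and PPP1R15B, were followed in Ishikawa cells treated with penfluridol. These kinases, mitochondrial relay genes and phosphatase subunits were taken by gene symbol from a deposited expression table, in which all 8 of 8 were found, each on 1 row, among 60670 genes. Ishikawa cells are an established human line of endometrial adenocarcinoma origin. The control group was 3 libraries of cells given the solvent DMSO, and the treated group was 3 libraries of cells given 5 µM penfluridol, a long-acting antipsychotic that blocks dopamine receptors. Both groups were grown in the same serum-containing medium, and no source used here states how long treatment lasted. Levels are TPM, transcript abundance per length scaled to a fixed total in each library, which puts different genes on one scale. Differences linked to transcript GC content, described below, remain in these levels.

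Cells under stress reduce protein synthesis by phosphorylating eIF2alpha, a subunit of the initiation factor that brings the initiator tRNA to the ribosome. EIF2AK1 (HRI), EIF2AK2 (PKR), EIF2AK3 (PERK) and EIF2AK4 (GCN2) are the kinases that do this. They respond to haem shortage and mitochondrial stress, to double-stranded RNA, to unfolded protein in the endoplasmic reticulum, and to amino acid shortage. OMA1, a protease of the inner mitochondrial membrane, cleaves DELE1 during mitochondrial stress, and DELE1 then binds and activates EIF2AK1. PPP1R15A (GADD34) and PPP1R15B (CReP) each bring protein phosphatase 1 to eIF2alpha and so reverse the phosphorylation. PPP1R15A is known as the stress-induced subunit and PPP1R15B as the constitutive one. Kinase activity and eIF2alpha phosphorylation are set at the protein level and were not measured by these libraries.

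Promoter sequence was available for 7 members, and the 3 that contain a searched element are shown because they allow the phosphatase subunits to be compared with each other and with EIF2AK2, a gene known to be induced by interferon. Each runs from 250 bases before to 50 bases after the RefSeq transcription start (GRCh38.p14), 5′ to 3′ on the gene's strand, with the matched element in capitals.
PPP1R15A, chr19:48872171-48872470, plus strand: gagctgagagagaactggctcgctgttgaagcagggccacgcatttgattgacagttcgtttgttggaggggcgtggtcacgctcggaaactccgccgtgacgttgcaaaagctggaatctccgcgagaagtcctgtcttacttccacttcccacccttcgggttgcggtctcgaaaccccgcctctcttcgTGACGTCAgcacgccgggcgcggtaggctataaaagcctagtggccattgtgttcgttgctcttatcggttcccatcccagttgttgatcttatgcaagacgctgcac
PPP1R15B, chr1:204411768-204412067, minus strand: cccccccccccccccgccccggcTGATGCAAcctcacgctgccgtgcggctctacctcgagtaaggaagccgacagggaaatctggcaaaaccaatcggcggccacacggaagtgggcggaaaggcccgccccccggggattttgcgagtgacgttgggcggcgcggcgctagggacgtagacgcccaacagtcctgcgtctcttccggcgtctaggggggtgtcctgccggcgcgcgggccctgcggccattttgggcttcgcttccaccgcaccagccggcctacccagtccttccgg
EIF2AK2, chr2:37156931-37157230, minus strand: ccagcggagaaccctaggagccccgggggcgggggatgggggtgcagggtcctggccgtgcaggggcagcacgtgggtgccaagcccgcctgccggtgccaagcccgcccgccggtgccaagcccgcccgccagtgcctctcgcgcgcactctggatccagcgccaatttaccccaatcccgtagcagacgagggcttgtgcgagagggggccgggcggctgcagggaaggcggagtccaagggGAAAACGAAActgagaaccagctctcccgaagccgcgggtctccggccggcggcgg
In all, 3 motifs were searched on both strands. The cAMP response element TGACGTNA, bound by CREB and ATF family factors, occurred in the promoter of PPP1R15A as the palindrome TGACGTCA, starting 58 bases before the start site, and in 3.01% of 35116 promoters. The core TGATGNAA of the C/EBP-ATF composite element, through which ATF4 acts, occurred in the PPP1R15B promoter as TGATGCAA, 227 bases before the start, and in 3.62% of all promoters. The core of the interferon-stimulated response element, GAAA repeated with any 2 bases between, occurred in the EIF2AK2 promoter as GAAAACGAAA, from 6 bases before the start, and in 3.57% of all promoters. Each motif was found in 1 member. The promoters of EIF2AK3, EIF2AK4, DELE1 and OMA1 had no match within this window.

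Each library summed to between 994165 and 997207 TPM, and since TPM keeps no read counts the depth is unknown. Pearson's correlation of log2(TPM + 1) over 12201 genes was 0.930 to 0.960 between DMSO libraries, 0.970 to 0.982 between penfluridol libraries and 0.895 to 0.955 between the groups. DMSO 3 correlated at 0.956 with DMSO 1, at 0.930 with DMSO 2 and at 0.945 to 0.955 with the penfluridol libraries, while DMSO 1 and DMSO 2 correlated with those at 0.895 to 0.930. Of 8 epithelial markers, 6 (EPCAM, CDH1, KRT8, KRT18, KRT19 and PAX8) were at 22.0 TPM or more in every library, while the hormone receptors ESR1 and PGR stayed under 1 TPM. The summed level of the 8 was 3914 to 4924 TPM in DMSO and 2579 to 2986 TPM with penfluridol. Of 12 markers of fibroblasts, leukocytes and endothelium, 10 were under 1 TPM in every library. The fibroblast list summed to 2.32 to 2.73 TPM in DMSO and 1.81 to 4.50 TPM with penfluridol, nearly all of it COL1A1, with DCN and LUM at 0. The endothelial list summed to 0.290 to 0.880 and 0.200 to 0.400 TPM. The leukocyte list summed to 0.770 to 1.48 TPM in DMSO and 4.56 to 4.88 TPM with penfluridol, where CD68, also a lysosomal protein of other cells, lay between 4.39 and 4.80 TPM in the penfluridol libraries, with CD3E at 0. The part of these levels in the results was not tested. In such bulk RNA, fewer cells of a type and less RNA per cell cannot be told apart. The labels do not say whether libraries came from separate cultures, so the spread behind each p-value may be technical.

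PPP1R15A transcripts were higher with penfluridol, about 7-fold, while none of the other 7 genes passed the test in either direction. All 8 averaged 1 TPM or more over the libraries and entered a limma fit of every gene at that level, on log2(TPM + 1), with a call at an adjusted p under 0.05. Of the 8, 1 was called higher and 0 lower, against 9.75% of all tested genes called higher and 3.48% called lower. At an unadjusted p under 0.05 the counts were the same, 1 higher and 0 lower, with no share of all tested genes taken at that threshold. Of all calls 73.7% were increases, and 53.0% after a correction for transcript GC content and length, under which 10.0% of tested genes were called higher and 8.90% lower.

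**Figure D1:**
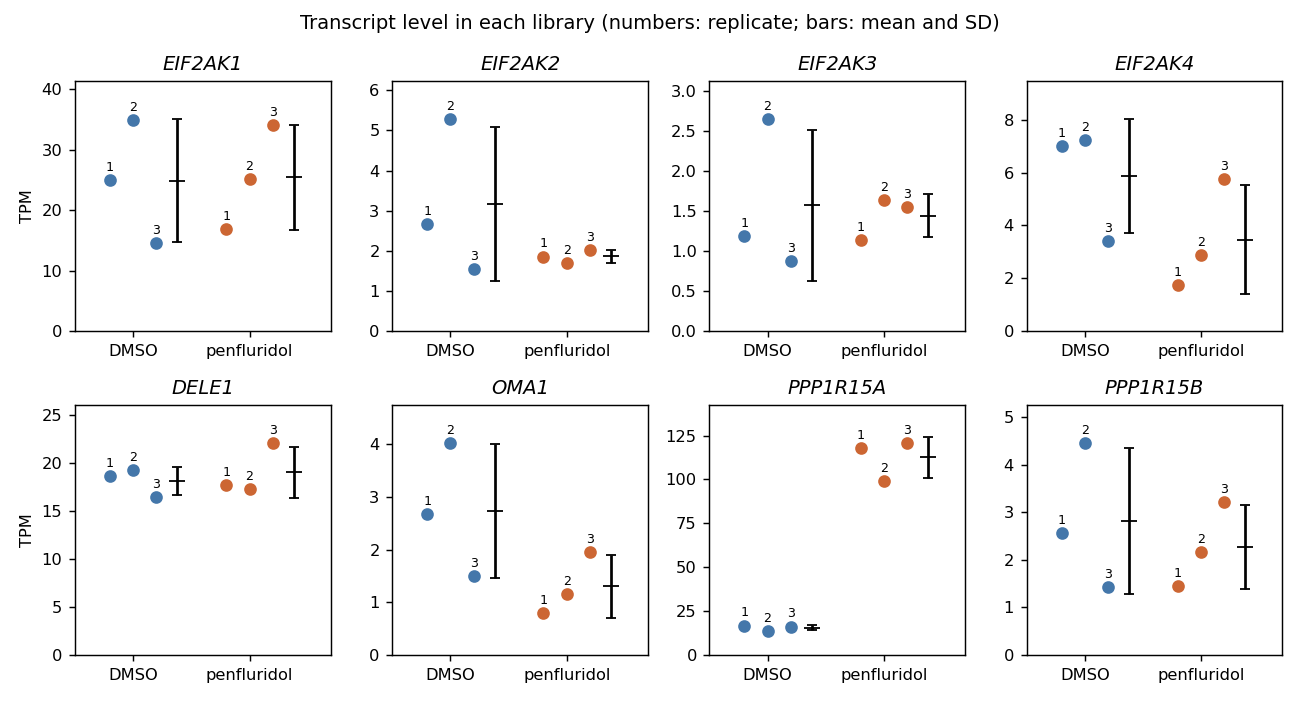
TPM of the 8 genes (vertical axes, each from 0) in the 3 DMSO and 3 penfluridol libraries, with the replicate number above each point and the mean with SD beside each group. The groups are apart for PPP1R15A, at 13.8 to 16.8 and 99.2 to 121 TPM, and overlap for the other 7 genes, where DMSO 2 is the highest and DMSO 3 the lowest DMSO library.

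Among the phosphatase subunits, PPP1R15A (ENSG00000087074, GRCh38 chromosome 19 from 48872392 to 48876057, plus strand) was at 16.8, 13.8 and 16.2 TPM in DMSO 1, 2 and 3. It was at 118, 99.2 and 121 TPM in penfluridol 1, 2 and 3. All penfluridol libraries lay far above all DMSO libraries, and within each group the highest value was about 1.21-fold the lowest in DMSO and 1.22-fold with penfluridol. The mean rose from 15.6 ± 1.56 TPM to 113 ± 11.7 TPM (SD over 3 libraries in each group), a 7.23-fold ratio of means. The log2 fold change fitted on log2(TPM + 1) was 2.78, or 6.85-fold (SE 0.14, limma adjusted p = 0.000231). The 95% interval of that change, 2.45 to 3.10, is 5.47-fold to 8.57-fold on the log2(TPM + 1) scale. Only 14 of the 12201 tested genes had a larger log2 fold change. The promoter of PPP1R15A, printed above, holds the full cAMP response element, whose part in this change was not tested.

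PPP1R15B (ENSG00000158615, chromosome 1 from 204403387 to 204411791, minus strand) had levels of 2.56, 4.46 and 1.42 TPM in DMSO 1, 2 and 3, and of 1.44, 2.16 and 3.21 TPM in penfluridol 1, 2 and 3. The groups overlapped, and the spread within each was wide, with a 3.14-fold range in DMSO and 2.23-fold with penfluridol. The log2 fold change was -0.18 (SE 0.36, adjusted p = 0.750), with a 95% interval of -1.03 to 0.67, so that changes between 0.491-fold and 1.59-fold cannot be separated from none. The interval lies wholly below that of PPP1R15A.

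PPP1R15A was the more abundant subunit in every library. It made up 86.7%, 75.6% and 91.9% of the summed PPP1R15A and PPP1R15B level in DMSO 1, 2 and 3, and 98.8%, 97.9% and 97.4% in penfluridol 1, 2 and 3. The log2 ratio of the subunits within a library was 2.20 ± 0.70 in DMSO and 5.15 ± 0.40 with penfluridol. That is a difference of 2.95, and the groups did not overlap. An exact two-sided permutation test over libraries gave p = 0.1, the smallest that 3 against 3 allows, or 0.175 when adjusted over the 14 ratios and sums computed.

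No catalytic partner was called. The 3 catalytic subunit genes of protein phosphatase 1, PPP1CA, PPP1CB and PPP1CC, summed to 546 ± 46.0 TPM in DMSO and 486 ± 40.3 TPM with penfluridol. For every 100 TPM of catalytic subunit there were 3.11, 2.74 and 2.72 TPM of PPP1R15A in the DMSO libraries, and 22.8, 19.9 and 27.4 TPM in the penfluridol libraries. The level of PPP1R15A thus stayed below the summed level of the catalytic subunits in all 6 libraries. PPP1CA made up 82.2% to 95.8% of that sum in DMSO and 93.4% to 97.1% with penfluridol. With penfluridol, PPP1CB (1.45 to 3.57 TPM) and PPP1CC (13.8 to 25.7 TPM) were each below PPP1R15A. In DMSO, PPP1CC (23.0 to 74.9 TPM) was above it, and PPP1CB was at 2.28 to 14.9 TPM. The ratio of PPP1R15A to the sum was higher in each penfluridol library than in any DMSO library (exact p = 0.1, adjusted 0.175).

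The kinases had no call. EIF2AK1 (ENSG00000086232, chromosome 7 from 6022244 to 6059230, minus strand) was the most abundant, at 25.1, 35.0 and 14.7 TPM in DMSO and 16.9, 25.2 and 34.2 TPM with penfluridol. Its groups overlapped almost wholly, with means of 24.9 ± 10.2 and 25.4 ± 8.67 TPM (log2 fold change 0.06, SE 0.36, adjusted p = 0.926, 95% interval -0.78 to 0.90). Exons of EIF2AK1 overlap those of AIMP2 on the opposite strand, and AIMP2 was at 63.5 to 75.5 TPM in DMSO and 88.0 to 93.1 TPM with penfluridol. No source used here states whether counting used strand, so reads of these genes may not have been told apart.

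EIF2AK4 (ENSG00000128829, chromosome 15 from 39934146 to 40035591, plus strand) was at 6.99, 7.23 and 3.40 TPM in DMSO and 1.74, 2.90 and 5.75 TPM with penfluridol. DMSO 3 lay below penfluridol 3, so the groups overlapped, and the log2 fold change of -0.67 (SE 0.40) did not pass (adjusted p = 0.272, 95% interval -1.61 to 0.27). EIF2AK2 (ENSG00000055332, chromosome 2 from 37099210 to 37157065, minus strand) was at 2.68, 5.28 and 1.54 TPM in DMSO. With penfluridol it was at 1.86, 1.71 and 2.03 TPM, inside the DMSO range (log2 fold change -0.44, SE 0.34, adjusted p = 0.387, 95% interval -1.25 to 0.37). Its upper bound is 1.29-fold before the GC and length correction. After it the log2 fold change was 0.27, with a 95% interval of -0.13 to 0.67. The part of the interferon-stimulated element shown above was not tested.

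EIF2AK3 (ENSG00000172071, chromosome 2 from 88556741 to 88627576, minus strand) had the lowest mean of the 8 in DMSO, at 1.19, 2.65 and 0.880 TPM in DMSO and 1.14, 1.64 and 1.55 TPM with penfluridol. The penfluridol values again fell inside the DMSO range, and its log2 fold change was -0.02 (SE 0.30, adjusted p = 0.968, 95% interval -0.74 to 0.70). This kinase of the endoplasmic reticulum was at a higher level than only 10.2% of the tested genes, while EIF2AK1 was above 71.6% of them. Low values on the log2(TPM + 1) scale understate a change.

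**Figure D2:**
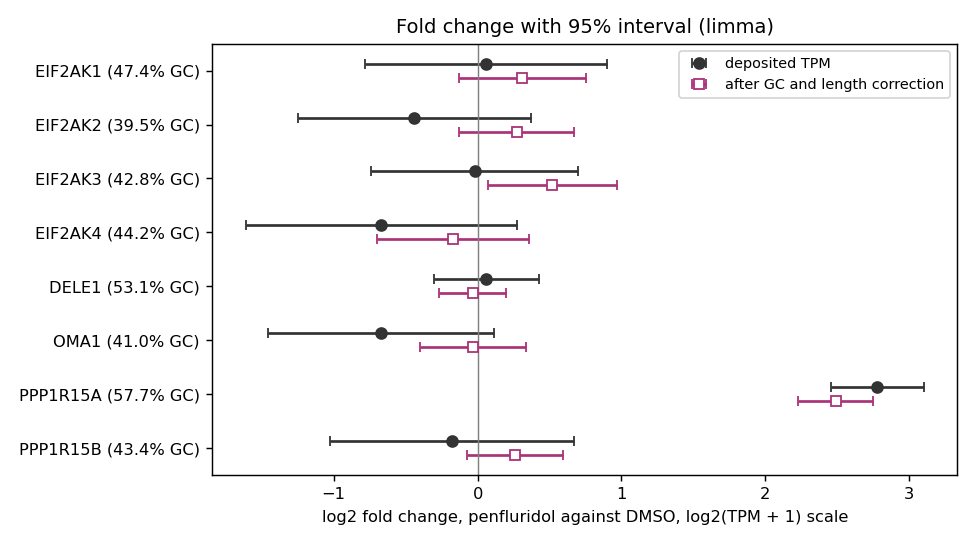
Log2 fold change of penfluridol against DMSO for the 8 genes (horizontal axis, log2(TPM + 1) scale), with 95% intervals, from the deposited TPM (filled circles) and corrected for transcript GC content and length (open squares). PPP1R15A lies at 2.78 and 2.49, and the uncorrected intervals of the other 7 genes all include 0. The corrected interval of EIF2AK3 runs from 0.07 to 0.97 without adjustment for the genes tested, and its adjusted p was 0.0994.

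The summed level of the 4 kinases was 35.9, 50.2 and 20.5 TPM in DMSO 1, 2 and 3 and 21.6, 31.5 and 43.5 TPM in penfluridol 1, 2 and 3. EIF2AK1 made up 69.8%, 69.8% and 71.6% of it in DMSO and 78.1%, 80.2% and 78.6% with penfluridol, ranges that did not overlap. EIF2AK4 made up 19.5%, 14.4% and 16.6% in DMSO and 8.06%, 9.21% and 13.2% with penfluridol. EIF2AK3 held 3.31% to 5.28% in all libraries. For the shares of EIF2AK1 and EIF2AK4 the exact two-sided permutation p was 0.1, adjusted 0.175. After the GC and length correction the share of EIF2AK1 was 73.4% ± 3.72 in DMSO and 75.5% ± 2.30 with penfluridol, and the groups overlapped (exact p = 0.6). That of EIF2AK4 was then 15.8% ± 2.76 and 11.2% ± 2.31, also with overlap (exact p = 0.2).

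**Figure D3:**
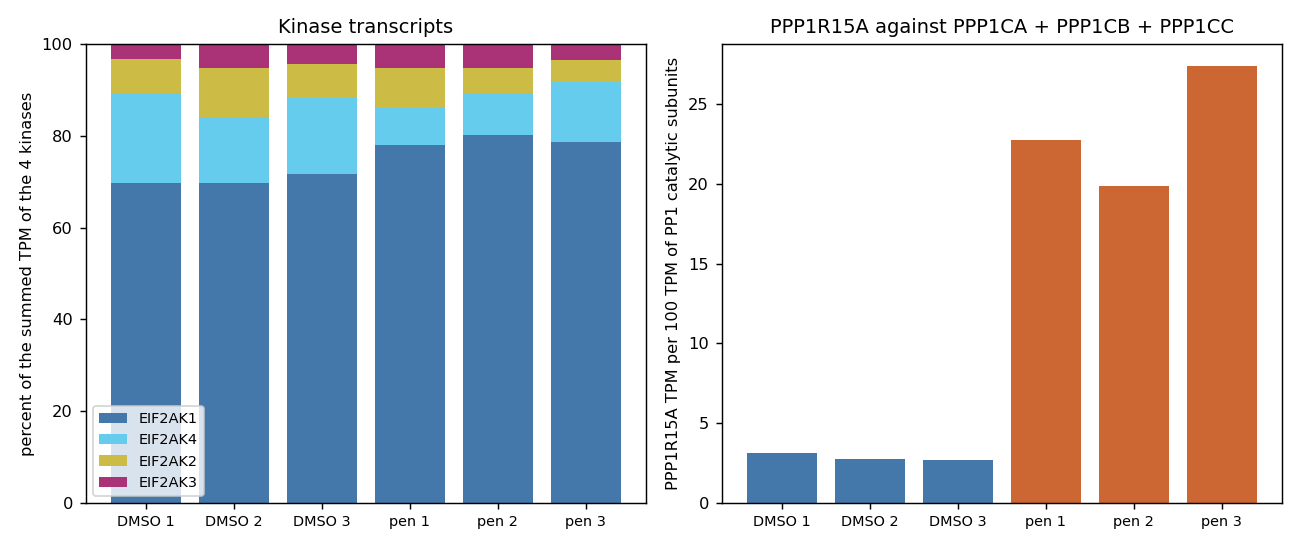
Left, share of each kinase in the summed TPM of the 4 kinases (percent) in each library (pen, penfluridol); EIF2AK1 holds 69.8% to 71.6% in DMSO and 78.1% to 80.2% with penfluridol. Right, PPP1R15A TPM per 100 TPM of PPP1CA, PPP1CB and PPP1CC, at 2.72 to 3.11 in DMSO and 19.9 to 27.4 with penfluridol; each bar is 1 library.

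The mitochondrial relay genes had no call either. DELE1 (ENSG00000081791, chromosome 5 from 141923808 to 141942047, plus strand) was at 18.7, 19.3 and 16.5 TPM in DMSO and 17.8, 17.2 and 22.1 TPM with penfluridol. It was among the steadiest of the 8, with group ranges of 1.17-fold and 1.28-fold, and its change was bounded more narrowly than that of any other uncalled member. The log2 fold change was 0.06 (SE 0.15, adjusted p = 0.804), with a 95% interval of -0.30 to 0.42, or 0.811-fold to 1.34-fold.

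OMA1 (ENSG00000162600, chromosome 1 from 58415384 to 58546802, minus strand) was at 2.67, 4.03 and 1.50 TPM in DMSO and 0.790, 1.16 and 1.96 TPM with penfluridol. DMSO 3 lay inside the penfluridol range, and the log2 fold change of -0.67 (SE 0.33) did not pass (adjusted p = 0.201, 95% interval -1.46 to 0.12). It had the smallest adjusted p of the 7 uncalled members. The substrate was more abundant than its protease throughout: DELE1 exceeded OMA1 by 6.99-fold, 4.78-fold and 11.0-fold in DMSO and by 22.5-fold, 14.9-fold and 11.3-fold with penfluridol. These ratios did not overlap between the groups (exact p = 0.1, adjusted 0.175), but after the GC and length correction they were 10.1 ± 1.17 and 10.2 ± 1.68 (exact p = 1).

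By level, the order in DMSO was EIF2AK1, DELE1, PPP1R15A, EIF2AK4, EIF2AK2, PPP1R15B, OMA1 and EIF2AK3, with means from 24.9 to 1.57 TPM. The library ranges of each pair of neighbours in this order overlapped, other than those of PPP1R15A and EIF2AK4. With penfluridol PPP1R15A moved from the third place to the first, at a level 4.43-fold that of EIF2AK1, followed by DELE1, EIF2AK4, PPP1R15B, EIF2AK2, EIF2AK3 and OMA1.

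The libraries of a group differed in a shared way across these genes. DMSO 2 was the highest and DMSO 3 the lowest DMSO library for 7 of the 8 genes, all but PPP1R15A. Penfluridol 3 was the highest penfluridol library for 7 of the 8, all but EIF2AK3. Transcript GC content was lower than the median of all tested genes, 51.8%, in 6 members, at 39.5% for EIF2AK2, 41.0% for OMA1, 42.8% for EIF2AK3, 43.4% for PPP1R15B, 44.2% for EIF2AK4 and 47.4% for EIF2AK1. DELE1 was at 53.1% and PPP1R15A at 57.7%. Over the 8 genes and 38 other pathway genes, 46 in all, GC content and log2 fold change correlated at r = 0.53, close to the r = 0.52 over all tested genes. These points share the same 6 libraries, so this is a description.

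**Figure D4:**
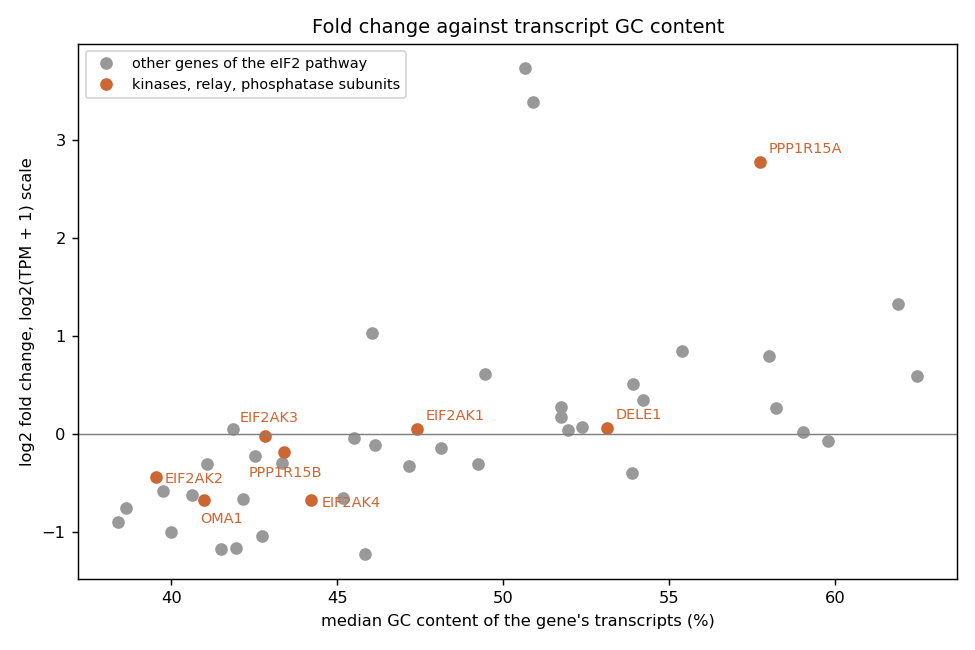
Log2 fold change (vertical axis, log2(TPM + 1) scale) against the median GC content of a gene's transcripts (percent) for the 8 genes (named) and 38 other genes of the eIF2 pathway (grey). PPP1R15A, at 57.7% GC and 2.78, lies above the band in which the other 7 sit.

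After the GC and length correction r over the 46 genes was 0.24. PPP1R15A kept its call, with a log2 fold change now at 2.49 (SE 0.11, limma adjusted p = 0.000100). The values of the low-GC members moved upward. EIF2AK3 came to 0.52 (adjusted p = 0.0994), EIF2AK1 to 0.31 (0.274), EIF2AK2 to 0.27 (0.290) and PPP1R15B to 0.26 (0.230). EIF2AK4 came to -0.17 (0.627), OMA1 to -0.030 (0.915) and DELE1 to -0.035 (0.835). None of these 7 passed, and the sign of EIF2AK2, EIF2AK3, PPP1R15B and DELE1 turned, so no direction can be given for them. The median log2 fold change of the 8 was -0.10 before and 0.27 after the correction, against -0.04 and -0.01 for all tested genes.

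Around these 8, 38 other genes of the eIF2 pathway, listed by role, were measured. Of these 5 were called higher (GCN1, LONP1, ATF4, ATF3 and DDIT3), 0 were called lower and 33 did not pass, a share near the 9.75% called higher and 3.48% called lower among all tested genes. At an unadjusted p under 0.05 the counts were 10 higher and 5 lower, by limma. The share of all tested genes at that threshold was not taken, so neither count can be read as an excess. Over the list, log2 fold changes had a median of -0.09. In 10 genes all penfluridol values lay above, and in 3 below, all DMSO values, where 23.3% and 13.6% of all tested genes did so.

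Of the 5 downstream factors 3 were called, all higher, against 9.75% of all tested genes called higher. The list was chosen with earlier results of these data known, so this share cannot be read as an excess. ATF5 (limma adjusted p = 0.0787) and QRICH1 (0.893) did not pass. DDIT3, which encodes CHOP, a transcription factor known to induce PPP1R15A, was at 24.2, 24.6 and 19.2 TPM in DMSO and 285, 290 and 359 TPM with penfluridol (log2 fold change 3.73, SE 0.15, limma adjusted p = 8.41e-05). ATF3, a stress-induced bZIP factor, was at 2.68, 3.22 and 3.41 TPM in DMSO and 34.8, 35.2 and 58.7 TPM with penfluridol (3.38, SE 0.23, adjusted p = 0.000798). ATF4, whose translation is favoured when eIF2alpha is phosphorylated, rose from 443 ± 24.5 to 801 ± 98.0 TPM (0.85, SE 0.12, adjusted p = 0.00728). In all 3 the groups were apart, as they were for PPP1R15A, whose fold change lay between those of ATF4 and ATF3. The call of ATF4 was lost without penfluridol 2 (adjusted p = 0.0540).

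Among partners of the kinases and of the relay, 1 of 8 and 1 of 9 were called, both higher, near the 9.75% of all tested genes called higher. GCN1, the ribosome-bound activator of EIF2AK4, was at 37.1, 49.3 and 36.9 TPM under DMSO and 63.6, 69.9 and 81.0 TPM with penfluridol (log2 fold change 0.79, SE 0.16, limma adjusted p = 0.0228). Its call was lost without DMSO 1 (adjusted p = 0.101), penfluridol 1 (0.0581), penfluridol 2 (0.107) or penfluridol 3 (0.0670), and after the GC and length correction (0.0501). LONP1, the mitochondrial matrix protease that degrades DELE1, was at 172, 149 and 185 TPM in DMSO and 454, 416 and 402 TPM with penfluridol (1.33, SE 0.12, adjusted p = 0.00174). HSPA5, the chaperone BiP that holds EIF2AK3 inactive, had the highest level of the kinase partners, at 77.5 ± 28.6 and 154 ± 34.6 TPM. Its groups were apart, but it did not pass (1.03, SE 0.30, limma adjusted p = 0.0640). It passed after the correction (0.000557), with median-of-ratios scaling (0.0177) and with at least 5 TPM in 3 libraries (0.0470). It did not with a pseudocount of 0.1 (0.0603), without a filter (0.153) or under a replicate block (0.174). PHB2, a prohibitin of the inner mitochondrial membrane and the most abundant relay partner, was at 705 ± 70.6 and 843 ± 27.9 TPM (adjusted p = 0.144).

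The substrate, its exchange factor and the catalytic phosphatase subunits had no call. EIF2S1, which encodes eIF2alpha itself, was at 81.4, 96.9 and 50.0 TPM in DMSO and 27.5, 35.3 and 48.7 TPM with penfluridol. The groups were narrowly apart, and the log2 fold change did not pass (95% interval -1.69 to -0.31, limma adjusted p = 0.0657). With GC content and length corrected it was -0.30 (adjusted p = 0.130). It passed as lower with median-of-ratios scaling (adjusted p = 0.0267), with a filter of at least 5 TPM in 3 libraries (0.0481) and without DMSO 3 (0.00985). EIF2B2, the most abundant of the 5 subunits of the exchange factor eIF2B, was at 52.0 ± 5.37 and 74.4 ± 8.86 TPM (0.51, SE 0.14, adjusted p = 0.0544, or 0.0299 after the correction). EIF2D, a factor that can deliver initiator tRNA without eIF2, was at 34.4 ± 0.344 and 39.4 ± 9.02 TPM (adjusted p = 0.514). PPP1CA was at 488 ± 78.2 and 463 ± 47.0 TPM (-0.07, adjusted p = 0.765).

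**Figure D5:**
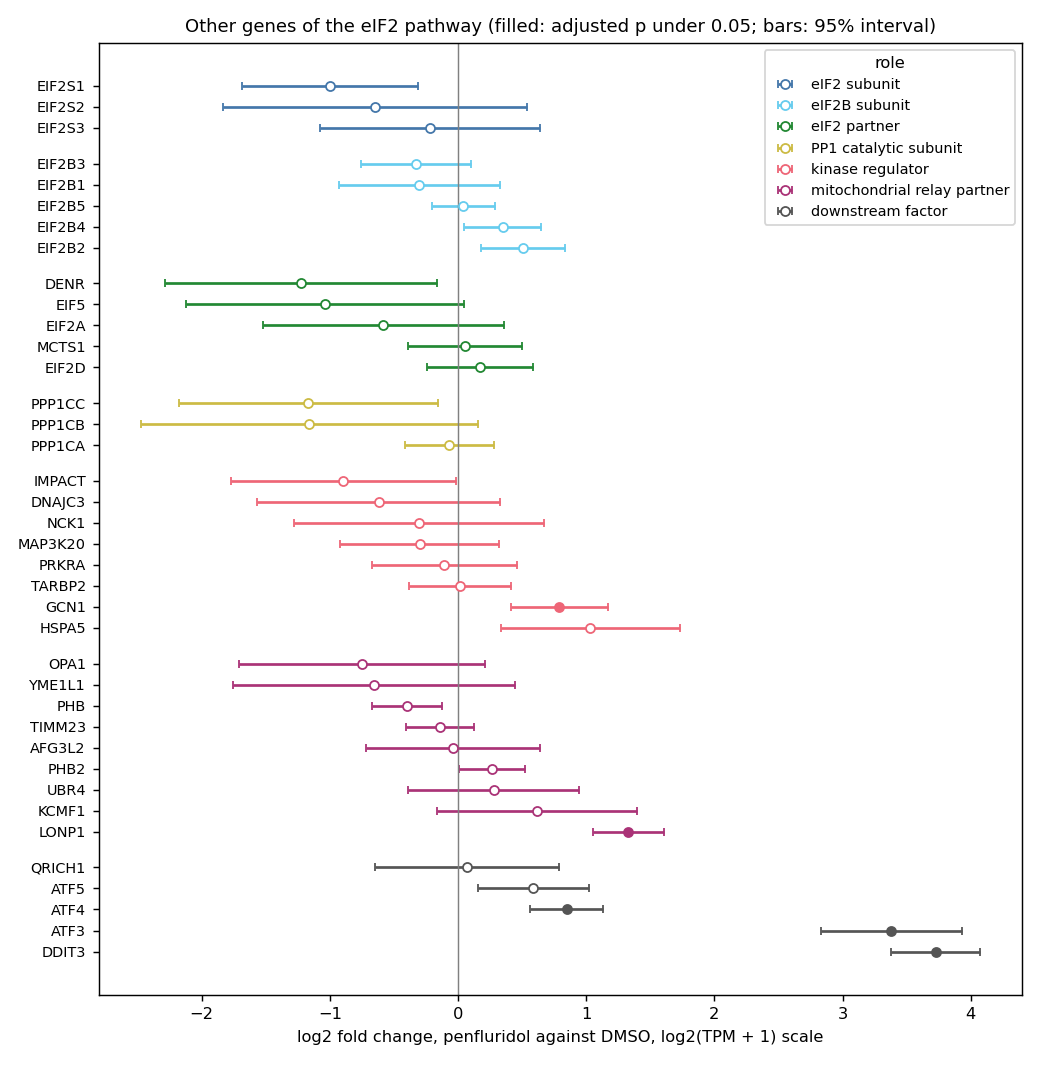
Log2 fold change of penfluridol against DMSO (horizontal axis, log2(TPM + 1) scale) with 95% intervals for 38 other genes of the eIF2 pathway, coloured by role. Filled points are the 5 genes with an adjusted p under 0.05, from 0.79 for GCN1 to 3.73 for DDIT3; the legend shows open symbols only.

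Counts in this list depended on DMSO 3, as did those over all genes. Without it 8 of the 38 genes were called higher and 9 lower, against 1732 and 2380 of the 12291 genes then tested. The 9 were PPP1CB, PPP1CC, DENR, EIF5, EIF2S1, EIF2S2, IMPACT, YME1L1 and NCK1, named after their values were seen. Without penfluridol 2, 3 were called higher and 0 lower, against 214 and 42 of the 12266 genes then tested. None of the 7 uncalled members passed in either case, and the smallest adjusted p among them was 0.0540, for OMA1 without DMSO 3.

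The genes whose profile over the 6 libraries lay nearest to PPP1R15A, by Euclidean distance of centred log2(TPM + 1) among 7180 named genes averaging 5 TPM or more, were CYP1A1, UPP1 and HERPUD1. Their distances were 0.472, 0.551 and 0.597, and Pearson's r over the 6 libraries was 0.995, 0.989 and 0.986, as a description. CYP1A1, a xenobiotic-metabolising cytochrome, was at 9.48, 9.57 and 9.30 TPM in DMSO and 54.0, 58.8 and 62.5 TPM with penfluridol. The nearest genes to the other members lay closer, at distances of 0.0802 for DELE1 (TUSC1), 0.0872 for OMA1 (EED), 0.104 for PPP1R15B (GSPT1) and 0.135 for EIF2AK4 (TMCO1). They were 0.167 for EIF2AK2 (FIP1L1), 0.195 for EIF2AK1 (APP) and 0.212 for EIF2AK3 (AGFG1). None of these 7 neighbours was called, but they were picked for likeness to uncalled members, so this is not a separate result.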

How the data were processed

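Messenger RNA libraries of Ishikawa cells were prepared with a SMARTer kit, according to the labels' protocols. The deposited values are TPM, scaled by the authors to a fixed total per library and given with 2 decimals, the unit being read from the column sums. Tools named in the submitters' processing notes are fastp and RSEM, and the build is GRCh38.p13; no source used here gives versions, aligner or annotation. TPM is relative, so when abundant transcripts rise the rest go down.

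Columns were matched to samples by name, and libraries were grouped by the labelled treatment. The 12201 genes averaging 1 TPM or more were fitted with limma 3.58.1 in R 4.3.3 (trended moderated variances) on log2(TPM + 1). Two-sided p-values were adjusted by Benjamini-Hochberg over these genes. SE values are moderated. Ratios within a library were tested by exact permutation, and those other than PPP1R15A to PPP1R15B were added after values were seen.

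GENCODE release 29 (GRCh38) gave positions and, for 99.3% of tested genes, transcript GC content and length as medians over a gene's transcripts. For the GC and length correction, each library's deviation from the gene means was fitted with natural splines of both and subtracted. Promoters came from RefSeq. The members and lists were chosen with earlier results of these data known. Named are all members, every called pathway gene, the most abundant gene of each role, and nearest genes by profile. No pair of libraries had more than 143 identical values, so none was a copy of another and each was kept. This does not show that they came from separate cultures. Alternatives were another pseudocount, filters, scaling, the correction, a replicate block and leaving out each library.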

Additional observations from a re-analysis of the deposited data

How the results depend on the processing

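PPP1R15A kept its direction and its call under all 13 alternatives, with log2 fold changes of 2.49 to 2.86 and limma adjusted p-values of 0.000100 to 0.0126, and no other member was called under any alternative that tested it. EIF2AK2, EIF2AK3, OMA1 and PPP1R15B were below the stricter filter, 5 TPM or more in 3 libraries, and so were not tested under it. The log2 ratio of PPP1R15A to PPP1R15B differed by 2.23 to 3.27, and by 2.58 to 3.27 with 1 library left out. DDIT3, ATF3 and LONP1 kept their calls throughout. ATF4 lost its call without penfluridol 2 and under a replicate block (adjusted p = 0.0911, or 0.0698 with the GC and length correction). GCN1 had adjusted p-values of 0.0157 to 0.121.

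Among uncalled members EIF2AK4 (-1.02 to -0.17) and OMA1 (-0.995 to -0.030) kept their sign under every alternative that tested them. The directions of the other 5 were not stable, and the cause was not tested. The sign turned after the GC and length correction, with or without the replicate block, for EIF2AK2 (0.27), EIF2AK3 (0.52), DELE1 (-0.035) and PPP1R15B (0.26), and the summed kinase level then differed by 6.48 TPM in place of -3.31 TPM. EIF2AK3 was at 0.011 with a pseudocount of 0.1 and at 0.047 with median-of-ratios scaling. With 1 library left out, values ran from -0.27 to 0.33 for EIF2AK1, -0.22 to 0.26 for EIF2AK3, -0.046 to 0.12 for DELE1 and -0.47 to 0.12 for PPP1R15B, and from -10.8 to 4.003 TPM for the kinase sum.

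Other pathway genes called higher numbered 5 as reported, 3 under the replicate block and 3 to 8 with 1 library left out. Those called lower numbered 0 as reported, 2 with at least 5 TPM in at least 3 libraries, 1 with median-of-ratios scaling, 1 after the GC and length correction and 0 to 9 with 1 library left out. Over all genes, 1190 were called higher and 425 lower as reported. The replicate block gave 62 and 12, the correction with the block 356 and 236, the correction alone 1226 and 1086, no filter 802 and 194, and leaving out 1 library 214 to 1732 and 42 to 2380. Deviations of same-numbered libraries from their group means correlated at -0.0081, -0.0061 and -0.35, and those of differently numbered libraries at -0.33 to 0.32. The same libraries enter all these values, so they cannot show whether the replicate numbers mark pairs. The depth is unknown, and only 4 of the 8 genes reached 5 TPM in 3 libraries, so the wide intervals of the low ones limit what can be said of them.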
